A study of Oryza sativa with 12 samples.

Results

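The NaCl response of rice shoots that overexpress *OsERF106MZ* (OE) was examined by setting 3 microarrays of NaCl-treated OE shoots against 3 of untreated OE shoots. *OsERF106MZ* encodes an ethylene-responsive transcription factor of the rice ERF-X group, and the overexpressed copy was placed in the cultivar Tainung 67 behind a cauliflower mosaic virus promoter that is active in most tissues. The groups were NaCl-treated OE (150 mM NaCl for 1 day), untreated OE (no added NaCl), NaCl-treated Tainung 67 and untreated Tainung 67, with 3 arrays each. All seedlings were 7 days old when treatment began and 8 days old when the aerial parts were taken. Both OE groups carry the transgene, and the labels do not say which of the study's OE lines was hybridized. The OE arrays are 6 of the 12 arrays, and all 42477 probes were included, of which 37144 were well above background on at least 3 arrays and were tested.

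High salinity withdraws water from plant cells and loads them with sodium. The stress hormone abscisic acid (ABA) rises in this situation, relieves its signalling chain from the brake of type 2C protein phosphatases (PP2Cs), and so activates bZIP transcription factors such as *OsABI5*. Their targets include late embryogenesis abundant (LEA) proteins and dehydrins, which protect proteins and membranes in drying cells. Heat shock proteins keep other proteins folded under many stresses, and HKT transporters move sodium out of the xylem.

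Each array gave the Cy3 signal of labelled RNA, here on the log2 scale after background correction and quantile normalization. A log2 difference of 1 is a 2-fold change. In OE, replicates 1 and 3 of both conditions lay on 1 slide, called slide 2, and replicate 2 of both conditions on another, called slide 3, so the response could be measured within each slide. Arrays of one condition and slide correlated at 0.9925 and 0.9928 across probes, and arrays of one condition on different slides between 0.9776 and 0.9826. The labels call the arrays biological repeats, but other descriptions of the study number or pool them differently, so each n counts arrays and each p reflects the spread between these arrays. Only 1640 probes could be paired with a rice locus. They were paired through lists of genes that the study chose for a genotype difference on these same arrays, so the named genes are not a sample of all genes. Probes for the transgene itself and for the usual green-tissue and root markers were not analysed here. A change in a shoot can come from RNA per cell or from the number of cells of a type, which cannot be told apart in whole shoots.

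NaCl changed 4180 probes in OE shoots (11.3% of those tested), that is, by more than 2-fold with a limma p under 0.05 after Benjamini-Hochberg adjustment. Of these, 2496 were upregulated (6.72%) and 1684 were downregulated (4.53%). The upregulated side held the larger changes. The median log2 fold change was 1.48 among upregulated probes and -1.24 among downregulated probes, against -0.059 over all probes tested. A log2 change above 3 was reached by 263 upregulated and 25 downregulated probes. The 3 NaCl arrays all lay above the 3 control arrays for 2420 of the upregulated probes (97%), and all below them for 1488 of the downregulated probes (88.4%). Among all probes tested, 21.7% were separated upward and 22.8% downward, or 44.5% in one direction or the other. The calls were made on these same arrays, so the separation of called probes largely follows from the call.

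Both slides showed the response, and differences over 2-fold were more frequent on slide 2. Over all probes tested, 3332, 2324 and 2959 were more than 2-fold higher with NaCl for replicates 1, 2 and 3, and 3039, 1679 and 2327 were more than 2-fold lower. The OE arrays of slide 3 were also brighter, with median signals of 582 (untreated) and 682 (NaCl), against 315.5 to 408.5 on slide 2. They had 85.9% and 86.5% of probes well above background, against 79.3% to 80.9% on slide 2. Whether this brightness bears on the counts was not tested. The called probes come from a fit in which slide 2 supplied 4 of the 6 OE arrays, which favours larger values on slide 2. Between arrays of the same replicate number, the upregulated probes had a median log2 difference of 1.62 for replicate 1, 1.39 for replicate 2 and 1.53 for replicate 3, and the downregulated probes had -1.44, -1.09 and -1.28. When probes were selected on the 4 arrays of slide 2 alone, 2701 were upregulated there, and 96.1% of these were also higher with NaCl on slide 3, where 45.6% of all probes were. Another 2079 were downregulated on slide 2, and 98.2% of these were lower on slide 3, against 54.4% of all probes. A change over 2-fold in the same direction on slide 3 was seen for 64.6% of the probes selected as upregulated, against 6.26% of all probes, and for 45.5% of those selected as downregulated, against 4.52%. Their median log2 difference was 1.49 on slide 2 and 1.24 on slide 3 for the upregulated probes, and -1.26 and -0.95 for the downregulated probes. These probes were selected for large differences on slide 2, so smaller values on slide 3 follow at least in part from that choice. Slide 3 held a single array of each condition, so its differences were not tested. Across all probes the differences of the slides correlated at 0.84, a description of probes that share arrays.

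**Figure D1:**
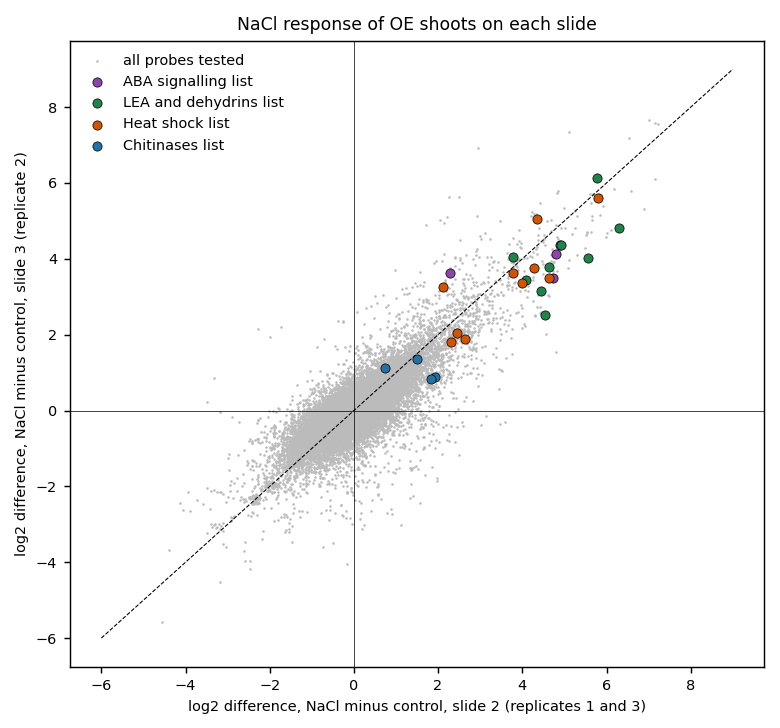
Log2 difference between NaCl-treated and untreated OE arrays on slide 2 (x axis, mean of replicates 1 and 3) and on slide 3 (y axis, replicate 2), 1 point per tested probe, with the dashed line marking equal values. Genes of 4 lists are coloured, and all of them lie above 0 on both slides, most LEA and ABA genes to the right of the line.

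Lists of genes for salt, drought and heat responses, antioxidants, transport, chitinases and tissue markers held 85 loci, and 40 of them had a probe. None of the 40 came from the antioxidant, photosynthesis or root marker lists. Of these 40, 32 rose and 1 fell with NaCl in OE, and 7 did not pass. Probes with a locus were called more often than others in any case, with 27.3% of the 1618 tested passing upward and 8.9% downward, against 6.72% and 4.53% of all probes tested. The genes that named them were chosen on these same arrays, so the counts that follow are descriptions of these genes.

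The ABA list had probes for 4 of its 15 loci, and all 4 rose, with a median log2 fold change of 4.46. The PP2C gene *OsPP2C68* (LOC_Os09g15670), a brake on ABA signalling, had log2 signals of 14.98, 14.63 and 14.85 on the NaCl arrays, against 9.52, 10.26 and 10.51 on the control arrays. This was a 26.4-fold rise (log2 4.72, SE 0.26, adjusted p = 1.84e-05 by limma), and the arrays of the conditions lay more than 4 log2 units apart. Another phosphatase gene, *OsPP2C30* (LOC_Os03g16170), had 14.43, 14.65 and 13.98 with NaCl, against 8.93, 10.52 and 9.86 without, a 24.0-fold rise (SE 0.25, adjusted p = 1.84e-05). *OsABI5* (LOC_Os01g64000), the bZIP factor downstream of the phosphatases, reached 10.39, 10.17 and 9.60, against 7.72, 6.56 and 7.69. Its rise was 6.64-fold (log2 2.73, SE 0.34, adjusted p = 0.000406), the smallest of the list, and was larger on slide 3 (3.62) than on slide 2 (2.29). LOC_Os07g05940, the remaining member, rose 20.0-fold (adjusted p = 0.000588), though its control arrays spread from 5.90 to 7.65.

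Every listed LEA and dehydrin gene that could be paired with a probe rose. The list had probes for 9 of 13 loci, and all 9 rose, by log2 fold changes between 3.86 and 5.89 with a median of 4.35. *OsLEA3* (LOC_Os05g46480) had 12.62, 11.56 and 12.70 on the NaCl arrays, against 5.50, 6.76 and 7.21 on the control arrays, a 55.8-fold rise (log2 5.80, SE 0.45, adjusted p = 5.44e-05). LOC_Os04g49980, the member with the largest rise, also had the smallest SE of the list, with 13.13, 13.75 and 13.56 against 7.72, 7.62 and 7.43 (59.5-fold, SE 0.20 on the log2 scale, adjusted p = 2.49e-06). The dehydrin gene *RAB16B* (LOC_Os11g26780), named for its response to ABA, had 16.27, 15.46 and 16.78 with NaCl, against 11.21, 11.67 and 12.59 without, a 20.4-fold rise. The dehydrin gene *OsLIP9* (LOC_Os02g44870) had 17.22, 17.20 and 17.42 against 12.73, 13.77 and 13.76, and no spot of any array was saturated. LOC_Os01g50910 had the widest gap between slides, with log2 differences of 4.55 on slide 2 and 2.51 on slide 3. Its replicate 1 control array, at 7.58, lay below the other control arrays at 10.45 and 9.96. The other members, *OsLEA3-2* (LOC_Os03g20680), LOC_Os06g23350, LOC_Os11g26570 and LOC_Os01g50700, rose 14.7-, 16.3-, 26.7- and 32.9-fold.

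Genes of the heat shock list rose as well. All 10 loci of the list had a probe and all 10 rose, by log2 fold changes between 2.14 and 5.73, with a median of 3.75. The list was drawn up with earlier results of these arrays known. The chaperone gene *HSP101* (LOC_Os05g44340), whose protein takes apart aggregates, had 9.89, 10.15 and 10.39 on the NaCl arrays, against 6.13, 6.38 and 5.61 on the control arrays. This was a 17.2-fold rise (log2 4.11, SE 0.23, adjusted p = 1.84e-05). Its 6 arrays fell into separate ranges, as did those of every other member of the list. Among the small heat shock proteins, which hold unfolding proteins in solution, *Hsp18.0* (LOC_Os01g08860) had 16.58, 16.05 and 17.17 against 11.97, 12.54 and 12.51 (19.2-fold, adjusted p = 2.79e-05). *Hsp18.1* (LOC_Os03g16030), *Hsp17.4* (LOC_Os03g16020), *Hsp17.7* (LOC_Os03g16040) and *Hsp17.9A* (LOC_Os03g15960), from one stretch of loci, rose 13.2-, 5.23-, 4.99- and 4.40-fold. LOC_Os01g04380 rose 5.65-fold, with NaCl arrays at 7.46, 9.15 and 8.61. The heat stress transcription factor genes *OsHsfC1b* (LOC_Os01g53220) and *OsHsfA2a* (LOC_Os03g53340) rose 24.1- and 13.8-fold. *OsHsfA2a* was well above background on 2 of the 3 control arrays, so its fold rests on a control level near background. LOC_Os04g01740 had the largest rise of the list, with 11.02, 11.06 and 12.25 against 5.45, 5.46 and 6.23 (53.1-fold, SE 0.38 on the log2 scale).

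The stress regulators did not move together. Of 7 members with a probe among 14, 4 rose, 1 fell and 2 did not pass. *OsHOX24* (LOC_Os02g43330), a homeodomain-leucine zipper factor, had 12.80, 12.32 and 12.62 with NaCl, against 5.88, 7.75 and 7.58 without, a 45.6-fold rise (log2 5.51, SE 0.50, adjusted p = 9.91e-05). *OsSRO1c* (LOC_Os03g12820), of a family that regulates oxidative stress, had 15.40, 14.74 and 15.38 against 10.61, 10.38 and 11.10, a 22.3-fold rise (adjusted p = 2.18e-05). LOC_Os03g60560 rose 14.4-fold. The F-box protein gene *OsMAIF1* (LOC_Os02g44990) was near background, at 7.21, 6.66 and 6.85 with NaCl and at 4.48, 5.35 and 5.19 without, where only 1 of 3 arrays was well above background. It rose 3.74-fold (adjusted p = 0.00184), and did not pass when replicates 1 and 3 of each group were averaged (adjusted p = 0.0518). The NAC factor gene *OsNAC006* (LOC_Os01g09550) gave 8.20, 8.40 and 8.26 against 8.57, 8.26 and 8.36, with overlapping arrays and a value of -0.11 on the log2 scale (SE 0.12, adjusted p = 0.493). LOC_Os01g74410 likewise gave -0.01 (SE 0.23, adjusted p = 0.977). LOC_Os05g25770 was the member that fell, with 7.05, 8.40 and 7.42 against 8.80, 9.59 and 9.20 (log2 -1.57, SE 0.47, adjusted p = 0.0234). That call was lost whenever any 1 of the 6 OE arrays was left out, with adjusted p between 0.0505 and 0.0797.

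**Figure D2:**
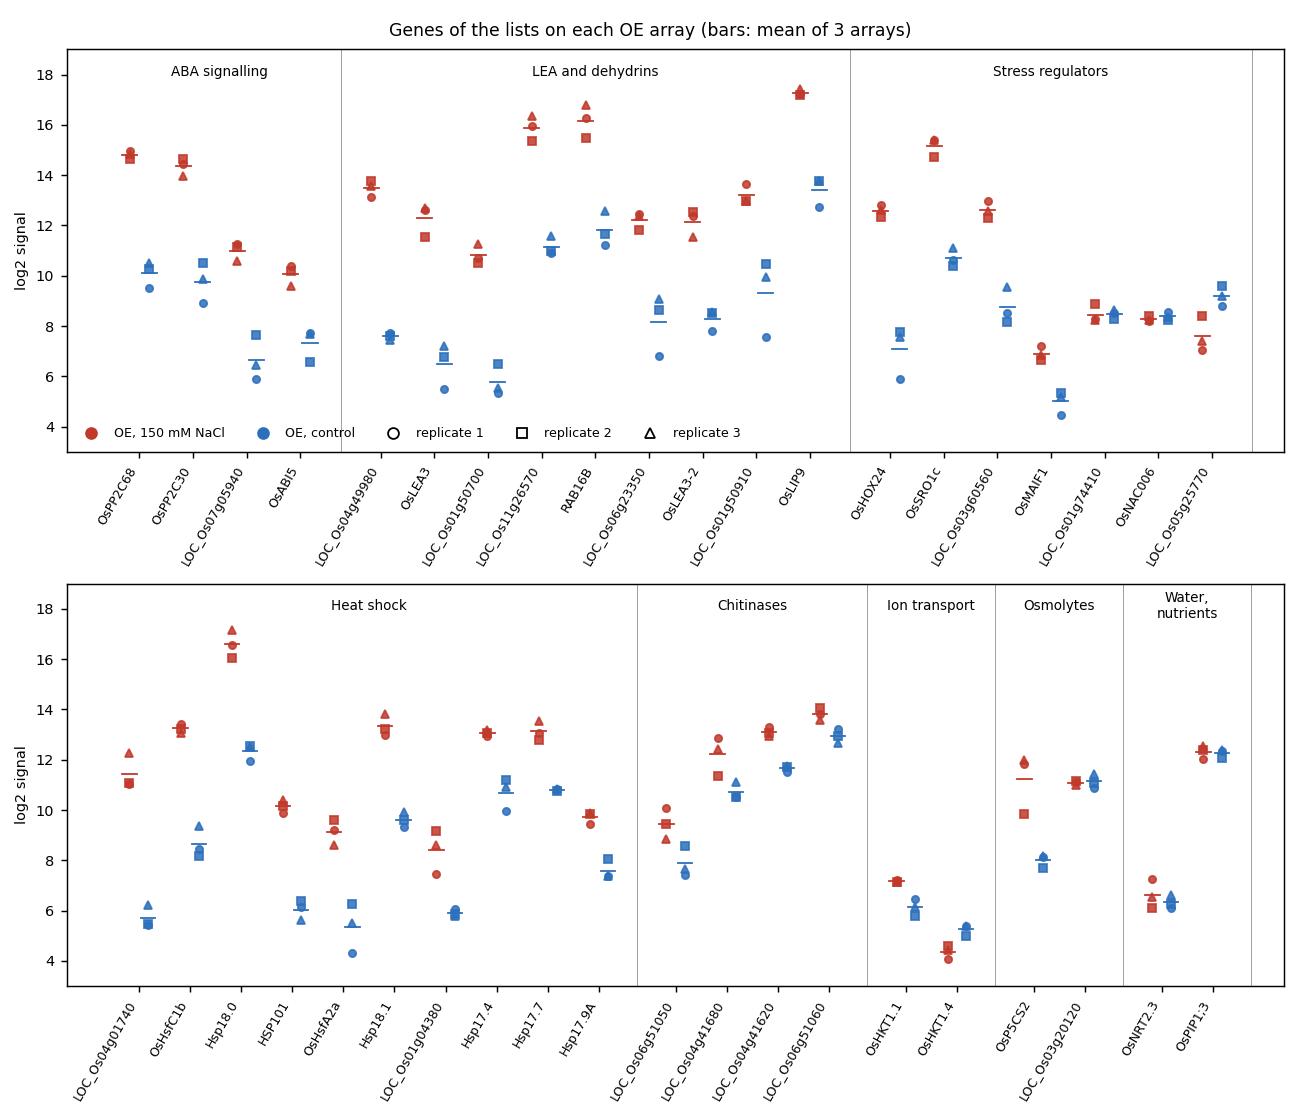
Log2 signal (y axis) of each listed gene with a probe on the 6 OE arrays, NaCl-treated in red to the left and untreated in blue to the right, with symbols for the replicate number and a bar at the mean of 3 arrays. The arrays of the conditions are apart for all ABA, LEA and heat shock genes and overlap for genes such as *OsNAC006* and *OsPIP1;3*.

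Of the 6 listed genes for ion transport, osmolytes, water and nutrients, 2 rose and 4 did not pass. The sodium transporter gene *OsHKT1.1* (LOC_Os04g51820) was low, with 7.21, 7.13 and 7.15 on NaCl arrays against 6.48, 5.79 and 6.14 on control arrays. The rise was 2.04-fold (log2 1.03, SE 0.23, adjusted p = 0.00743), just inside the 2-fold threshold, and it fell short of it without replicate 2 of either condition (log2 0.87) or without replicate 3 of untreated OE (0.98). The call was also lost with a background-correction offset of 50 (log2 0.68) and with replicates 1 and 3 averaged (adjusted p = 0.0602 by limma). *OsHKT1.4* (LOC_Os04g51830), of the same family, was dim, with 4.08, 4.61 and 4.44 against 5.4, 4.98 and 5.41, and was well above background on 1 of 3 NaCl arrays and 2 of 3 control arrays. Its log2 fold change of -0.89 (adjusted p = 0.0103) did not pass, but was -1.15 and passed without replicate 2 of either condition, and was -2.06 with processed signals. *OsP5CS2* (LOC_Os01g62900), an enzyme gene of proline synthesis, rose 9.34-fold, with 11.85, 9.86 and 11.99 against 8.14, 7.71 and 8.18. Its replicate 2 array with NaCl lay about 2 log2 units under the others. The other osmolyte locus, LOC_Os03g20120, the aquaporin gene *OsPIP1;3* (LOC_Os02g57720) and the nitrate transporter gene *OsNRT2.3* (LOC_Os01g50820) had log2 fold changes of -0.06, 0.05 and 0.30, with overlapping arrays and adjusted p of 0.792, 0.857 and 0.314.

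Chitinases cut chitin, a polymer of fungal walls and insect shells. All 4 loci of that list had a probe, and 3 rose, with a median log2 fold change of 1.47 over the 4. LOC_Os04g41620 had 13.30, 13.06 and 12.94 against 11.53, 11.70 and 11.74 (2.72-fold, adjusted p = 0.000205), and LOC_Os04g41680 had 12.87, 11.35 and 12.42 against 10.52, 10.52 and 11.10 (2.82-fold, adjusted p = 0.00238). LOC_Os06g51050 rose 2.98-fold (adjusted p = 0.0198), with control arrays from 7.43 to 8.56. Leaving out replicate 1 of either condition or replicate 3 of untreated OE ended that call (adjusted p between 0.0563 and 0.072). The fourth, LOC_Os06g51060, had a log2 fold change of 0.87 (adjusted p = 0.0239), under 2-fold, and passed without replicate 1 of untreated OE (1.07).

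The largest rises among all probes with a locus were mostly in genes outside these lists, and they are given here by locus alone. The largest was that of LOC_Os07g44430, with 12.82, 13.93 and 14.13 on the NaCl arrays, against 7.52, 6.37 and 4.96 on the control arrays (162-fold, log2 7.34, SE 0.90, adjusted p = 0.000365). It was well above background on 2 of the 3 control arrays, which themselves spread over more than 2 log2 units. The probes CUST_18004, CUST_7029 and CUST_37650, which have no locus, were the largest rises of their kind, at log2 7.30, 7.23 and 6.75. They followed LOC_Os07g44430 across the 12 arrays with correlations of 0.998, 0.999 and 0.995, so they may not be separate results. LOC_Os11g07911 had 16.20, 15.50 and 16.40 against 8.24, 9.38 and 10.07 (112-fold, SE 0.41, adjusted p = 2.41e-05). LOC_Os02g06410 had 11.32, 10.36 and 11.46 against 4.03, 5.05 and 4.96 (82.5-fold), and was well above background on 1 control array only.

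The remaining rises of that set were similar in size. LOC_Os04g57880 (57.7-fold), LOC_Os05g31670 (56.3-fold), LOC_Os10g36180 (53.2-fold), LOC_Os05g05930 (51.8-fold), LOC_Os05g03130 (49.8-fold) and LOC_Os04g52110 (48.0-fold) were well above background on all 6 OE arrays. LOC_Os04g52110 had the smallest SE of the 12 largest rises, at 11.65, 11.60 and 11.96 against 6.0, 6.11 and 6.34 (SE 0.18, adjusted p = 2.49e-06). LOC_Os04g57880 differed more between slides, with a log2 difference of 5.10 on slide 2 and 7.35 on slide 3, where its control array read 5.74 against 8.41 and 8.30 on slide 2.

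Falls were smaller. The largest with a locus was LOC_Os05g06140, with 7.07, 6.16 and 4.36 on NaCl arrays, against 10.10, 10.69 and 7.66 on control arrays (log2 -3.62, SE 0.83, adjusted p = 0.0075). Its replicate 3 arrays were the lowest of both conditions, 2 of its 3 NaCl arrays were well above background, and on slide 2 alone the fall did not pass (adjusted p = 0.11). LOC_Os03g12510 fell with less spread, at 10.05, 11.44 and 9.54 against 13.56, 14.06 and 14.15 (12-fold lower, adjusted p = 0.000332). The unnamed probe CUST_38927 followed it with a correlation of 0.999 over the 12 arrays. LOC_Os10g40530 and LOC_Os10g40510, which have close locus numbers, were 10.1-fold and 9.70-fold lower with NaCl (adjusted p = 0.000151 and 0.00122). LOC_Os10g40510 had 10.75, 11.02 and 9.98 against 13.92, 13.40 and 14.26. LOC_Os04g43800 had 8.32, 9.20 and 8.31 against 11.83, 11.31 and 11.59 (7.83-fold lower, adjusted p = 0.000103). The other 7 of the 12 largest falls with a locus, LOC_Os04g33740, LOC_Os08g26220, LOC_Os11g10800, LOC_Os03g19990, LOC_Os01g37590, LOC_Os07g25060 and LOC_Os03g58850, had log2 fold changes between -2.82 and -2.37. LOC_Os08g26220 and LOC_Os11g10800 were well above background on 1 of 3 NaCl arrays each. The largest fall of all was in a probe with no locus. CUST_6919 had 8.55, 8.23 and 10.09 with NaCl, against 13.78, 13.80 and 14.01 without (log2 -4.90, SE 0.77, adjusted p = 0.0012), and CUST_31115 had -3.56.

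**Figure D3:**
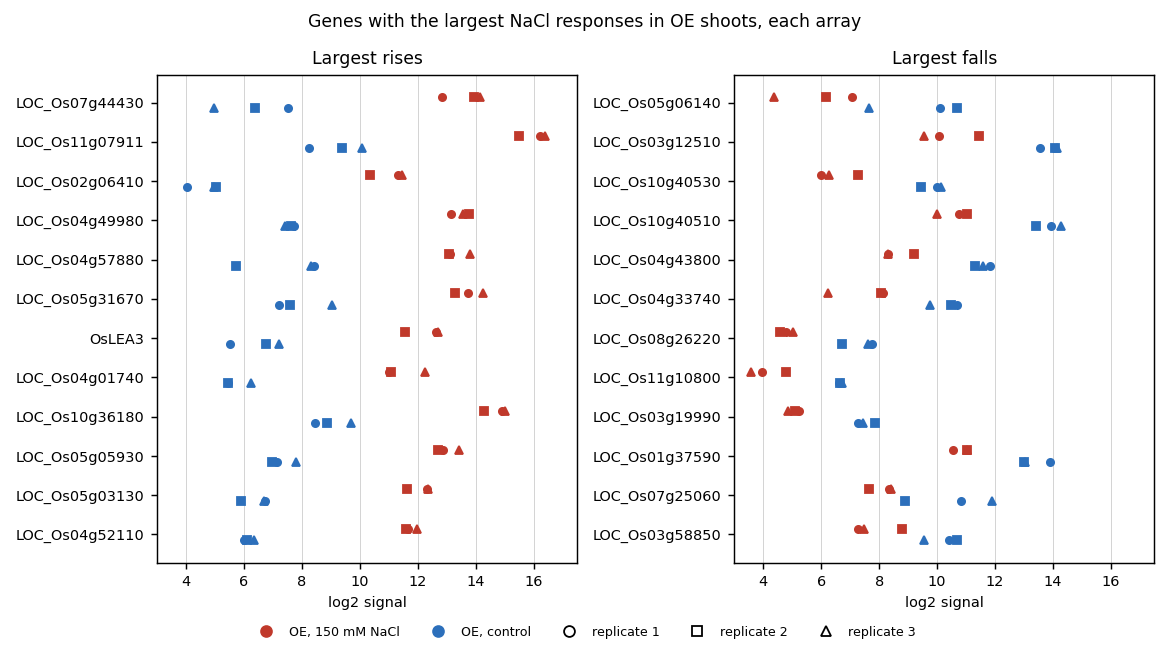
Log2 signal (x axis) on each OE array of the 12 largest rises (left) and the 12 largest falls (right) among probes with a locus, NaCl-treated in red above and untreated in blue below for each gene. Rises span up to 7.34 log2 units (LOC_Os07g44430) and falls up to 3.62 (LOC_Os05g06140), and the 3 arrays of one condition do not overlap those of the other, which the choice of these genes required.

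Some genes were above background only with NaCl. Of the upregulated probes, 108 were not well above background on any control array, and 92 of these were well above it on all 3 NaCl arrays. The floor on each control array was its dimmest probe signal that still counted as well above background, or the probe's own signal where higher. Over that floor, their rises were at least 1.83-fold to at least 80-fold, with a median of at least 3.01-fold. The 3 with a locus and the largest bounds, chosen after the values were seen, were LOC_Os04g43170, LOC_Os04g56309 and LOC_Os04g12960. LOC_Os04g43170 had 9.61, 10.41 and 9.68 with NaCl, against 5.22, 4.61 and 4.36 without (at least 35.2-fold higher, adjusted p = 2.89e-05). The bound was at least 15.2-fold for LOC_Os04g56309 and at least 12.3-fold for LOC_Os04g12960. The reverse was rarer. Of the downregulated probes, 22 were not well above background on any NaCl array, and 11 of these were well above it on all 3 control arrays, with falls of at least 2.09-fold to at least 3.52-fold. The largest bound was that of LOC_Os09g19229, at 3.84, 4.43 and 3.36 with NaCl, against 6.37, 6.11 and 6.08 without.

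The response of OE was set against the response of Tainung 67, fitted from the other 6 arrays. NaCl changed 4015 probes in Tainung 67 (10.8%), of which 2110 were upregulated (5.68%) and 1905 downregulated (5.13%), and the arrays of the conditions did not overlap for 39.2% of all probes tested there. Upregulated probes made up 59.7% of the calls in OE and 52.6% of those in Tainung 67. Of the 2496 upregulated in OE, 1480 (59.3%) were also called upregulated in Tainung 67, which was 70.1% of the Tainung 67 calls in that direction. Of the 1684 downregulated in OE, 789 (46.9%) were shared, or 41.4% of the Tainung 67 calls. Failing the threshold in Tainung 67 does not show a different response. The sign there was the same for 97.5% of the probes upregulated in OE and for 97.1% of those downregulated, with medians of 1.19 and -0.975 in Tainung 67. The response itself differed between the genotypes for 217 probes (0.584% of those tested), 116 (0.312%) where OE had the higher value and 101 (0.272%) where it had the lower. With the replicate number as a block in place of the slide, the count was 64. It was 736 without replicate 2 of either Tainung 67 group, 39 without replicate 3 of untreated Tainung 67, and between 58 and 106 without replicate 1 or 3 of any other group or replicate 1 of untreated Tainung 67. The NaCl-treated Tainung 67 array of replicate 2 correlated with the other arrays of its group at 0.9649 and 0.9661, less than any pair of OE arrays of one condition. The untreated Tainung 67 array of replicate 2 did so at 0.9758 and 0.9762, also under the lowest OE pair (0.9776). Without either array of that replicate, the response of Tainung 67 rests on replicates 1 and 3 alone.

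None of the 23 ABA, LEA and heat shock genes passed the test of the difference, which does not show that the genotypes responded alike. The LEA list had a median log2 fold change of 4.35 in OE and 5.86 in Tainung 67, and 4 of its 9 members had the larger value in OE. For 5 of the 9, *OsLEA3* and LOC_Os01g50700 among them, untreated Tainung 67 was well above background on 1 array or none, which limits the Tainung 67 values and their median. Within slide 3, which holds both genotypes, 1 of the 9 was larger in OE. For the heat shock list the medians were 3.75 in OE and 2.31 in Tainung 67, and all 10 members had the larger value in OE over all arrays. The listed genes have a locus because the study chose them for a genotype difference on these same arrays, NaCl-treated ones included. A larger value in one genotype can follow from that choice, so these counts are descriptions only. Within slide 3, with 1 array for each condition and genotype, 6 of the 10 had the larger value in OE. The other 4 had the larger value in Tainung 67, with 5.05 in OE and 6.22 in Tainung 67 for *OsHsfC1b*, 3.35 and 4.50 for *OsHsfA2a*, 1.89 and 2.46 for *Hsp17.4*, and 1.81 and 2.71 for *Hsp17.9A*. The nearest to the threshold was *Hsp17.7*, with 2.32 in OE and 0.81 in Tainung 67, a difference of 1.51 (SE 0.28, adjusted p = 0.0554). For LOC_Os04g01740 the values were 5.73 in OE and 3.76 in Tainung 67 (difference 1.97, adjusted p = 0.116), but untreated Tainung 67 was well above background on 1 of 3 arrays, which limits its value. *RAB16B* ran the other way, with 4.35 in OE and 6.95 in Tainung 67 (difference -2.61, adjusted p = 0.07). The control arrays of *RAB16B* read 11.21, 11.67 and 12.59 in untreated OE and 6.24, 9.60 and 6.56 in untreated Tainung 67, a comparison across slides except for replicate 2.

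**Figure D4:**
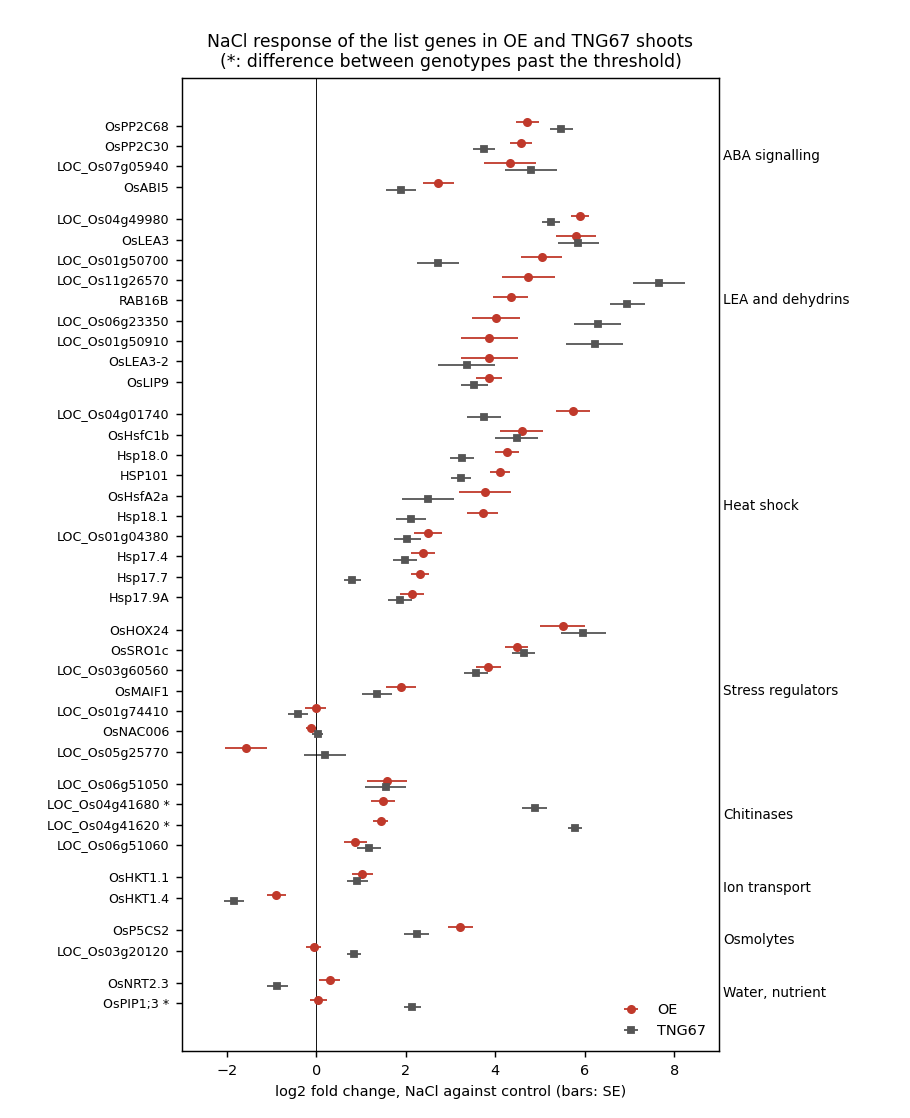
Log2 fold change with NaCl (x axis, bars are SE) of the 40 listed genes with a probe, OE as red circles above and Tainung 67 as grey squares below for each gene, with an asterisk where the difference between the genotypes passed. All 10 heat shock genes have the larger value in OE over all arrays, none of them past the test and 4 of them with the larger value in Tainung 67 within slide 3, while LOC_Os04g41620, LOC_Os04g41680 and *OsPIP1;3* have the smaller value in OE and pass. The genes were named through a genotype difference on these same arrays, from which such differences can follow.

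Of the 1618 tested probes with a locus, 55 passed the test of the difference, against 217 of all 37144 probes tested (0.584%). Loci were given through genes chosen for a genotype difference on these same arrays, so this count is no result about named genes. LOC_Os11g40530 had 9.48, 9.05 and 10.25 in NaCl-treated OE and 6.24, 5.03 and 5.25 in untreated OE, while no Tainung 67 array was well above background. Its log2 fold change was 4.08 in OE (SE 0.27, adjusted p = 3.16e-05 by limma). The difference from Tainung 67 passed (adjusted p = 0.00473), but its size is not given here because Tainung 67 has no level above background in either condition. LOC_Os03g25490 had 12.59, 11.70 and 12.48 in NaCl-treated OE and 8.68, 7.39 and 8.51 in untreated OE, against 5.80, 6.36 and 5.61 in NaCl-treated and 4.27, 4.56 and 4.48 in untreated Tainung 67. It rose in both genotypes, by 4.07 in OE and 1.49 in Tainung 67 (difference 2.58, adjusted p = 0.00436), but no untreated Tainung 67 array was well above background, so the Tainung 67 rise and the difference are set by the floor. The difference did not pass with the replicate number as a block (adjusted p = 0.119), and was 1.43 with processed signals (adjusted p = 0.0955). LOC_Os01g50030 rose by 1.36 in OE, with 10.76, 10.50 and 10.73 against 9.40, 9.16 and 9.36, and had -0.14 in Tainung 67 (difference 1.5, adjusted p = 0.00671, but 0.117 with the replicate block).

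A weaker response in OE was found for 5 of the named genes. LOC_Os04g41620 rose by 1.44 in OE and by 5.79 in Tainung 67 (difference -4.35, SE 0.22, adjusted p = 0.000225), and LOC_Os04g41680 by 1.5 in OE and 4.88 in Tainung 67 (difference -3.38, adjusted p = 0.0106, but 0.0501 without replicate 3 of untreated Tainung 67). The untreated arrays of LOC_Os04g41620 read 11.53, 11.70 and 11.74 in OE and 6.66, 5.95 and 6.16 in Tainung 67. LOC_Os04g33920 had 10.41, 9.99 and 10.67 in NaCl-treated OE and 6.51, 6.33 and 6.94 in untreated OE, a log2 fold change of 3.76 in OE and of 7.57 in Tainung 67 (difference -3.81, adjusted p = 0.00857). Untreated Tainung 67 was well above background on 2 of 3 arrays for this gene. Its difference just missed the threshold with processed signals (adjusted p = 0.0509) and with the deposited values (adjusted p = 0.0508). *OsPIP1;3* gave 12.04, 12.39 and 12.55 in NaCl-treated OE and 12.35, 12.08 and 12.40 in untreated OE, while it rose by 2.15 in Tainung 67 (difference -2.10, adjusted p = 0.0175, but 0.109 with the replicate block). It also missed the threshold without replicate 3 of untreated OE, replicate 1 or 3 of untreated Tainung 67, or replicate 1 of NaCl-treated Tainung 67 (adjusted p between 0.0555 and 0.0725). LOC_Os08g32960 gave 0.41 in OE, under 2-fold, and rose by 1.93 in Tainung 67 (difference -1.53, adjusted p = 0.00715). Within slide 3, which holds both genotypes, differences were read for the 6 genes well above background on at least 2 of 3 untreated Tainung 67 arrays. They were 1.2 for LOC_Os01g50030 and between -4.51 and -1.2 for the other 5. All were called over the 12 arrays, slide 3 included, so their signs there largely follow from that choice.

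**Figure D5:**
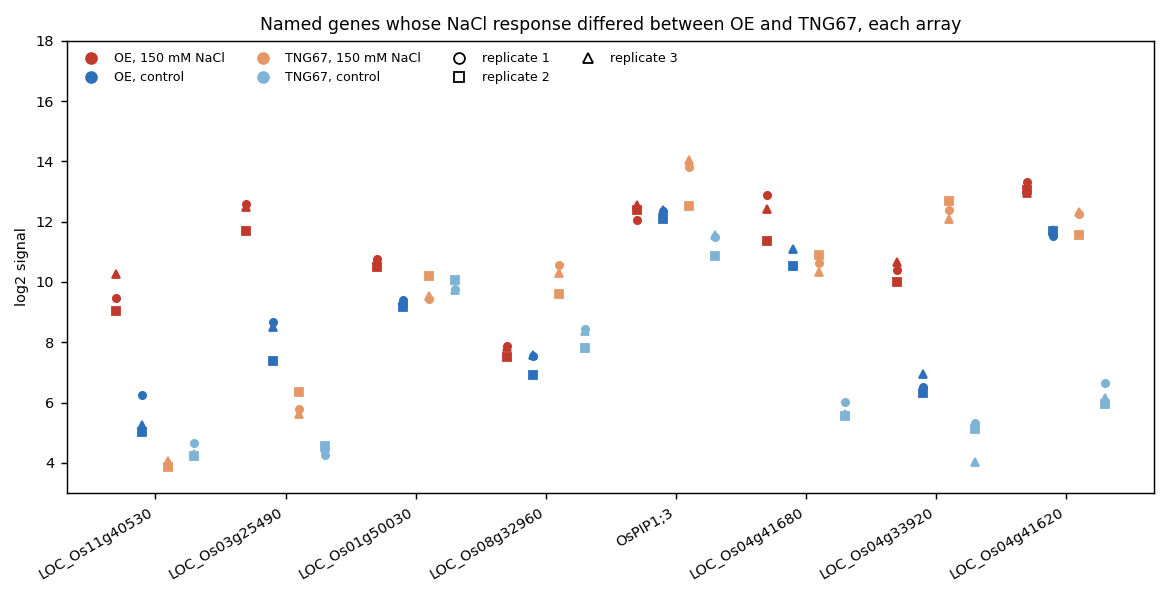
Log2 signal (y axis) on all 12 arrays of the 8 named genes whose NaCl response differed between the genotypes, in the order NaCl-treated OE, untreated OE, NaCl-treated and untreated Tainung 67 from left to right for each gene. LOC_Os11g40530 is higher with NaCl in OE and not above background on any Tainung 67 array, and LOC_Os04g41620 stands higher in untreated OE than in untreated Tainung 67.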

How the data were processed

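The authors deposited the Agilent Feature Extraction 10.7.1.1 output of each Cy3 array, an intensity for the signal and the local background of each spot, and flags for outliers and spots well above background. They also deposited log2 values, which equal the log2 processed signal less a constant per array and per probe and were used as an alternative. Median signals were background-corrected (normexp, offset 0) and quantile-normalized with limma 3.58.1 in R 4.3.3. Outlier and 1417 control spots were left out and the spots of a probe averaged. A probe counted as well above background where 50% of its spots were. Means of the 4 groups and a slide term were fitted to all 12 arrays (6 residual and 2.88 prior degrees of freedom). Between 79.3% and 88% of probes per array were well above background, and the number of arrays limits the precision.

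Replicate numbers are shared by the groups. Deviations of same-numbered OE arrays from their group means correlated at 0.286, 0.68 and 0.491, and above 0.1 for every pair, which was taken as a pairing. Number 2 is also a slide of its own, and a slide shift shared by both conditions would raise the correlation of every number. The check therefore cannot tell a pairing from the slide. The fit above holds the slide and not this pairing, and the replicate number as a block was an alternative.

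Probes were named by the locus of Data S1 (1182 probes), or of Data S2 where a single probe had the listed fold change (458 probes). Of 452 loci in both, this placed 434 on the probe of Data S1 and 1 on another. Fold changes and p-values in those tables are the authors' own comparisons and were used for naming only. Gene names are the published ones of each locus. No table used here pairs them, but RefSeq lists 20 of the names on the chromosome of the locus and the paper uses 4 others, and 5 loci whose names neither gives are printed by locus. Lists defined by gene descriptions were not used here. Members and lists were chosen with earlier results of these data known. The genes named are those of the lists that have a probe, the 12 largest rises and falls among probes with a locus that passed with separated arrays and one direction on both slides, the 3 each without a locus, the genes the paper names, and the 3 loci in each direction with the smallest adjusted p for the difference between genotypes. The fit was also run on simulated data with independent noise and slide shifts. That simulation held no pairing by replicate number, and its outcome is not given here. The alternatives were other background corrections and scalings, the deposited values, other filters, other block terms, fewer arrays, averaged replicates and the methods' t-test.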

Additional observations from a re-analysis of the deposited data

Results flagged for a closer look

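The NaCl response differed between OE and Tainung 67, by limma's test of the difference with Benjamini-Hochberg adjustment, for 8 of the genes named above. The difference, OE minus Tainung 67 on the log2 scale, was 4.53 for LOC_Os11g40530, 2.58 for LOC_Os03g25490, 1.5 for LOC_Os01g50030, -1.53 for LOC_Os08g32960, -2.10 for *OsPIP1;3* (LOC_Os02g57720), -3.38 for LOC_Os04g41680, -3.81 for LOC_Os04g33920 and -4.35 for LOC_Os04g41620. No Tainung 67 array of LOC_Os11g40530 and no untreated Tainung 67 array of LOC_Os03g25490 was well above background, so the sizes of these differences are set by the floor. With replicates 1 and 3 of each group averaged, none of the 8 passed, and adjusted p by limma was between 0.0791 and 0.599, in a fit in which no probe passed, while 1062 exceeded 2-fold at an unadjusted p under 0.05. Groups of 3 arrays were not searched for outlying arrays.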

How the results depend on the processing

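Counts of changed probes in OE lay between 2791 (the methods' t-test) and 5302 (processed signals) under the alternatives tried, against 4180. Leaving out any 1 of the 12 arrays gave 3719 to 4792 probes (2270 to 2696 up, 1449 to 2096 down), and with the replicate number as a block in place of the slide, 3987. Downregulated probes numbered 2531 with the deposited values and 936 with the methods' t-test. Processed signals and deposited values moved the median log2 fold change of all probes to -0.11, against -0.059, and the upregulated share of calls to 52.5% and 52.2%, against 59.7%. In Tainung 67, between 3620 and 4323 probes passed (2025 to 2317 up, 1568 to 2023 down) when 1 of its arrays was left out, alternatives chosen after seeing the data, and 954 with the methods' t-test (551 up, 403 down). The number of probes whose response differed between genotypes was less stable. Against 217 (116 up, 101 down), it was 64 with the replicate block (26 and 38), 35 without a slide term (13 and 22), 119 with processed signals (52 and 67), 122 with the deposited values (56 and 66) and 0 with replicates 1 and 3 averaged (0 and 0, with 1062 over 2-fold at an unadjusted p under 0.05). The part with the larger value in OE was 185 with an offset of 50 and 179 with slide as a random block. Leaving out 1 array, also chosen after seeing the data, gave 39 to 736 probes (13 to 404 up, 26 to 332 down). The replicate block changed no call among the named OE responses.

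Of 1337 values of named OE responses under the alternatives, 1282 kept direction and call, 33 lost the call, 6 gained it and 16 changed sign, all of these in genes that did not pass. For LOC_Os01g74410 (-0.01) it was 0.02 with processed signals and with deposited values, 0.14 with replicates averaged, 0.59 within slide 3 and -0.31 to 0.11 with an array left out. *OsPIP1;3* was -0.08 within slide 2 and -0.08 to 0.23 with an array left out, LOC_Os03g20120 0.06 within slide 3 and -0.20 to 0.12, *OsNAC006* 0.14 and *OsNRT2.3* -0.16 within slide 3. The median of the stress regulators was -0.00936 with probes well above background on all arrays, where fewer genes remain. The median of the 2 ion transport genes was -0.396 with processed signals, -0.399 with deposited values, -0.138 within slide 2 and -0.138 to 0.174 with an array left out. Apart from these constructions the cause was not tested.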
